A study of Mus musculus with 4 samples.

Results

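The mitochondrial ribosome translates the few proteins that are encoded in mitochondrial DNA, and its own protein subunits are encoded by nuclear genes whose symbols in the mouse begin with Mrpl (large subunit) or Mrps (small subunit). These genes were examined in mouse embryonic fibroblasts (MEFs), primary cells that become senescent after a limited number of divisions, treated with pigment epithelium-derived factor (PEDF), a secreted glycoprotein of the serpin family. All protein-coding rows of the count data with a symbol of this form were taken, which gave 78 of 55487 genes (21936 of them protein-coding), 49 with an Mrpl and 29 with an Mrps symbol. The rule uses symbol and gene type and no measured value. Of the 78 genes, 77 reached 10 counts in total and were tested. The exception was Mrpl53, which had 0 counts in all 4 libraries (a count of 0 allows up to 3 by counting error), and 88.0% of whose exon bases are shared with another gene, Gm42688, on the same strand.

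Wild-type MEFs at passage 2 in the labels (passage 3 in the paper) were left untreated or received PEDF at 100 ng/mL for 24 h. The 2 experiments used MEFs from different embryos, by the design text of the series, and each gave 1 control and 1 PEDF library, so the groups held 2 libraries each. The cells of all groups were grown in medium with fetal bovine serum, and they are a primary population rather than a clonal line. Library totals were 14722848 to 18144640 counts, and polyadenylated RNA was sequenced. All 10 fibroblast markers examined were detected. Their summed level was 46800 to 54600 CPM in the control libraries and 42400 to 45700 CPM in the PEDF libraries, where CPM are counts in 1000000 after scaling by edgeR's TMM factors. Macrophage markers summed to 83.6 to 131 and 106 to 127 CPM, endothelial markers to 16.1 to 16.3 and 16.0 to 16.7, epithelial markers to 42.6 to 56.7 and 43.5 to 55.5, skeletal muscle markers to 326 to 403 and 361 to 424, and proliferation markers to 949 to 991 and 939 to 978 (control, then PEDF). No marker of these lists (5 to 10 genes each) was at 0 in all libraries. In edgeR without the block described below, no marker was called. With the block, 2 fibroblast markers were called higher and 4 lower, 1 macrophage and 1 muscle marker higher and 1 proliferation marker lower. Of all genes, 1.67% were called higher and 2.07% lower. After a correction for gene length, the muscle and proliferation calls were lost and 3 fibroblast markers were lower. The part of these levels in the results for the ribosomal genes was not tested.

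Mitochondrial ribosomes descend from those of bacteria. They have lost part of the bacterial ribosomal RNA and have gained proteins that bacteria do not have, so the subunits divide into those with a bacterial counterpart and those specific to mitochondria. Their products are core components of the respiratory chain and of ATP synthase, and the subunits must be made in balance with ribosomal RNA transcribed inside the organelle. NRF1, ETS-family factors such as GABP, and YY1 are known to regulate many nuclear genes for mitochondrial proteins.

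Recognition sequences of these factors were searched on both strands in the 300 bases around each transcription start (250 before it and 50 after it) in RefSeq sequences of build GRCm38.p6, which holds promoters of 69 of the 78 genes. The NRF1 motif, a core of 10 bases with 1 free position, was found in 13 of the 69 genes (18.8%), the ETS motif CCGGAAG in 26 (37.7%) and the YY1 motif AAGATGGC in 12 (17.4%), and any of them in 43 (62.3%). An ETS match and a YY1 match can overlap by as many as 3 bases, and NRF1 matches can overlap the others by fewer. Counted by promoter, these motifs occurred in 17.3%, 34.7% and 16.0% of the 75 promoters of the Mrp genes and in 4.6%, 8.86% and 2.75% of all promoters in the same collection. The 150 bases before the start are shown for 3 genes with an adjusted p under 0.05 in the comparison within experiments described below, and for Mrps18b, the gene with the lowest fold change. Capitals mark a motif match, and all run 5 prime to 3 prime on the strand of the gene.
Mrpl28 (chr17:26123353-26123502, plus strand): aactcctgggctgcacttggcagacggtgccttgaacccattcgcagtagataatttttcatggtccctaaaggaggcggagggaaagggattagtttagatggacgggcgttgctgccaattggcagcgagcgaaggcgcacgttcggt
Mrpl12 (chr11:120484487-120484636, plus strand, NRF1 motif): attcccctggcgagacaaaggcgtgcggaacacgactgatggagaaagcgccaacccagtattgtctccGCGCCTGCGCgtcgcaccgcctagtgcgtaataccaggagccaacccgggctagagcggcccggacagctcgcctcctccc
Mrpl22 (chr11:58171514-58171663, plus strand, ETS motif): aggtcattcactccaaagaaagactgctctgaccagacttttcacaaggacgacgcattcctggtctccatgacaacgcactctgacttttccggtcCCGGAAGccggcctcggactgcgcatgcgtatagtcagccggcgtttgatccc
Mrps18b (chr17:35916441-35916590, minus strand): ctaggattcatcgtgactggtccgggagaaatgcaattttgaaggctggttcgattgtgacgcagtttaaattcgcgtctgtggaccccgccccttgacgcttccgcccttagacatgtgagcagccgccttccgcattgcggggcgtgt
The NRF1 match of Mrpl12 begins 81 bases before its start and the ETS match of Mrpl22 begins 53 bases before its start. The windows of Mrpl28 and Mrps18b shown hold none of these letters. Mrps18b has an ETS match after its start, outside the part shown. A match describes the letters of the window and does not show that a factor binds there.

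The 77 genes were transcribed at moderate levels that differed by gene much more than by treatment. Per length, in TPM (transcripts in 1000000, as deposited), the gene medians were 39.8 for the Mrp genes and 12.4 for all tested protein-coding genes. The mean over the 4 libraries ran from 6.89 TPM for Mrps35, a small-subunit protein specific to mitochondria, to 179 TPM for Mrpl54, a large-subunit protein specific to mitochondria, a 26.0-fold range, and the middle 50% of genes lay between 22.1 and 60.7 TPM. Mrpl54 stood at 164 and 170 TPM without PEDF (experiments 1 and 2) and at 197 and 187 TPM with it. Next were Mrpl12 (mean 136 TPM), a protein of the stalk that binds translation factors, Mrpl34 (134 TPM) and Mrps21 (127 TPM), both with bacterial counterparts. The values of these 3 genes overlapped between libraries, so their order is not resolved. At the other end stood Mrpl1 (8.98 TPM) and Mrpl33 (8.97 TPM). TPM divides by the summed length of all annotated exons of a gene, which is 7326 bp for Mrpl33 and 8631 bp for Mrps35. The median over the annotated coding transcripts of the Mrp genes is 1056 bp. The part of the annotated length in these low levels was not tested. Mrpl33 held 292 to 445 counts per library. In counts, a gene of the group held 160 to 1390 per library, with a median of 546.

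**Figure D1:**
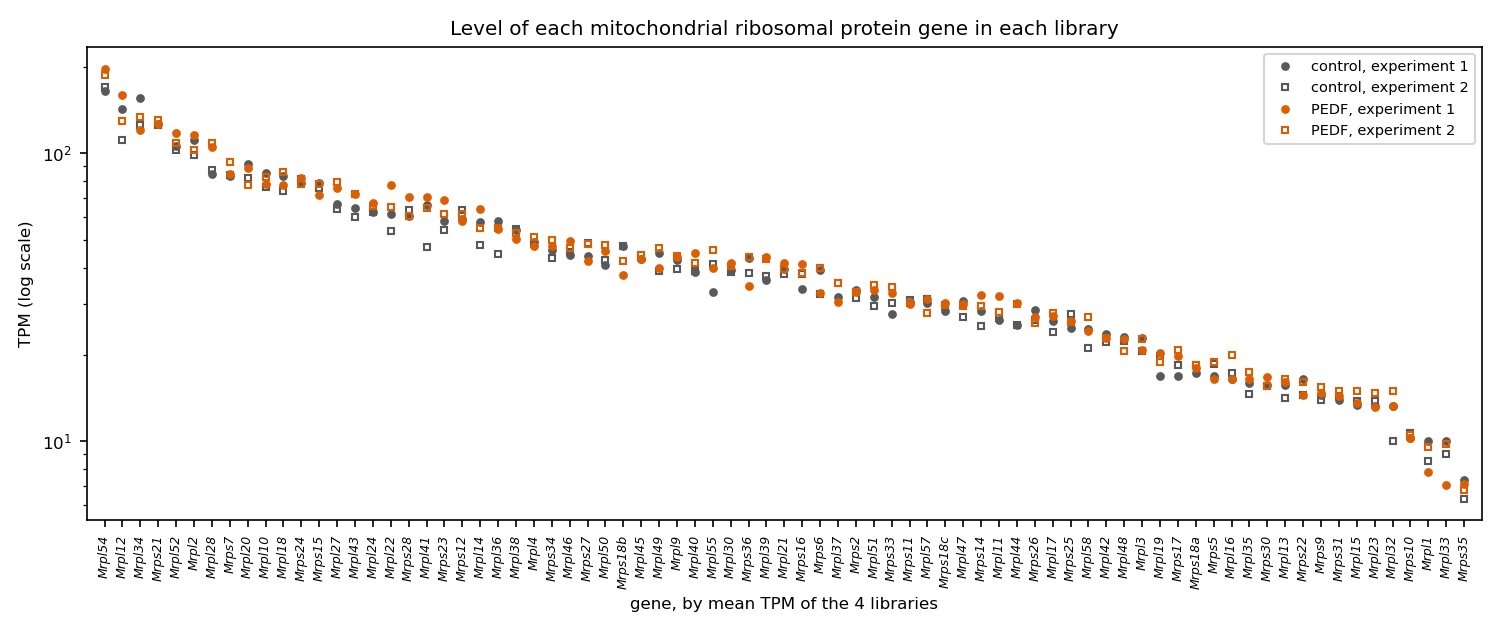
TPM (log axis) of the 77 tested Mrp genes in each library, ordered by the mean of the 4 libraries, with control in grey, PEDF in orange, experiment 1 filled and experiment 2 open. The levels span 6.89 to 179 TPM as means, and the 4 libraries of a gene lie close together beside that range.

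Together, the transcripts of these genes made up 0.267% and 0.246% of all counts of control MEFs in experiments 1 and 2, and 0.284% and 0.27% of those of PEDF-treated MEFs. Summed TPM were 3519 and 3350 for control and 3644 and 3633 for PEDF-treated MEFs. Both PEDF values lay above both control values on either scale. The mean share of counts was 0.0205 percentage points higher with PEDF, beside an SD of 0.0148 between the control libraries, and no test was made on this sum. Without Mrpl12, the gene with the most counts, the difference was 0.02 percentage points. In such libraries of whole cultures, more transcripts per cell and more cells that express the genes cannot be told apart.

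PEDF was compared with control to find which of these genes differed between treated and untreated MEFs. Small differences toward higher levels with PEDF were seen in most of them. Of the 77 genes, 62 (80.5%) had a log2 fold change above 0, compared with 50.2% of all 19384 genes tested. Here and below, all genes means genes of every type, length and level, and shares by length class are given further on. The median log2 fold change was 0.09, the middle 50% of the genes lay between 0.02 and 0.18 (the median was 0.05 without control replicate 2), and the range was -0.23 to 0.34, while the median of all genes was 0.001. The largest values belonged to Mrpl28, Mrpl22 and Mrpl32 on the higher side and to Mrps18b, Mrpl33 and Mrpl34 on the lower side.

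By edgeR's test with treatment as its single term, 0 of the 77 genes reached an adjusted p under 0.05 (0.00516% of all genes, or 1 gene, did so), and their smallest adjusted p was 0.53. An unadjusted p under 0.05 was given to 11 genes with a higher level (14.3%), compared with 3.22% of all genes, and to 1 gene with a lower level, Mrps18b, compared with 3.66% of all genes. No such share was taken among genes of similar length and level. DESeq2 without the block called 0 of the 74 genes to which it gave an adjusted p, and 1 of the 77 had an unadjusted p under 0.05. With a block for the experiment, so that treated and control MEFs of the same experiment are compared, edgeR gave an adjusted p under 0.05 to 4 of the 77 genes (5.19%), all higher with PEDF, compared with 1.67% of all genes. No Mrp gene was lower by this measure, compared with 2.07% of all genes, although Mrps18b had an unadjusted p under 0.05 (7.38% of all genes were lower by that measure). So did 21 Mrp genes with a higher level, compared with 7.18% of all genes. In DESeq2 with the block, 1 Mrp gene had an unadjusted p under 0.05 and none received an adjusted p. Adjusted over all genes instead, that fit called 0 of them. The median difference with the block in edgeR corresponded to a level 6.64% higher with PEDF. With so few libraries, the blocked fits leave little freedom to measure the variation of a single gene. Their p-values therefore rest largely on variation estimated across genes.

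Mrpl28, a protein of the large subunit with a bacterial counterpart, had the largest fold change (ENSMUSG00000024181, chr17:26123500-26126613, plus strand, GRCm38). Control MEFs gave 615 and 742 counts and PEDF-treated MEFs 824 and 928 counts, or 41.7 and 41.6 CPM against 53.0 and 52.1 CPM. Both PEDF libraries were above both control libraries, and the spread within a treatment was small beside the difference. The log2 fold change was 0.34 (standard error 0.08, adjusted p = 0.53) in edgeR without the block and 0.34 (standard error 0.07, adjusted p = 0.000605) with it. With no filter on low counts and no block, its adjusted p was 0.0464 in edgeR.

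Mrpl12 (chr11:120484613-120489065, plus strand) is also known to associate with the mitochondrial RNA polymerase. Its levels were 78.1 CPM in control and 89.4 CPM in PEDF-treated MEFs of experiment 1, and 58.8 and 68.8 CPM in experiment 2. The treatments overlapped because experiment 1 was higher throughout, while within each experiment the PEDF library was the higher one. The log2 fold change was 0.21 in both edgeR fits, with a standard error of 0.18 (adjusted p = 0.846) without the block and of 0.06 (adjusted p = 0.0259) with it. This call was lost when a trend with gene length was also removed (0.14, adjusted p = 0.313 in edgeR). Without the block, its value was 0.43 (adjusted p = 0.0249 in edgeR) when the control library of experiment 1 was left out and 0.01 (adjusted p = 0.999 in edgeR) when the PEDF library of experiment 1 was.

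Mrpl54 (chr10:81264713-81266934, minus strand) had 48.0 and 48.3 CPM in control and 59.3 and 53.5 CPM in PEDF-treated MEFs. Mrpl22 (chr11:58171661-58179565, plus strand), which lines the tunnel through which the new protein leaves the large subunit, had 21.3 and 18.3 CPM against 27.8 and 22.2 CPM. In both genes the PEDF libraries lay above both control libraries, by the smallest margin for Mrpl22 in experiment 2. In the blocked edgeR fit, the values on the log2 scale were 0.22 for Mrpl54 (standard error 0.07, adjusted p = 0.0459) and 0.33 for Mrpl22 (standard error 0.11, adjusted p = 0.0469). The fit with no block gave both an adjusted p of 0.696 in edgeR. With the block and a correction for gene length these calls were lost as well (0.15, adjusted p = 0.376 for Mrpl54, and 0.25, adjusted p = 0.252 for Mrpl22). The exons of these genes sum to 825 and 981 bp. Without the block, the value of Mrpl22 ranged from 0.17 when the PEDF library of experiment 1 was left out to 0.49 when that of experiment 2 was.

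Mrps18b is 1 of 3 mitochondrial proteins related to the same bacterial small-subunit protein, of which Mrps18a is now placed in the large subunit and Mrps18c is the counterpart proper. Mrps18b (chr17:35910379-35916389, minus strand) had 35.2 and 34.4 CPM in control and 28.9 and 30.6 CPM in PEDF-treated MEFs. It was lower with PEDF in both experiments and its treatments did not overlap. The log2 fold change was -0.23 with a standard error of 0.09 (edgeR, adjusted p = 0.696, and 0.141 with the block). The log2 fold changes of Mrps18a and Mrps18c were 0.05 (standard error 0.11) and 0.07 (standard error 0.15), so neither differed from 0 beyond its error. Of the exon bases of Mrps18b, 30.5% are shared with Gm16279 on the opposite strand. The paper names a directional library kit, so reads carry their strand. Whether the counting used it is not given in the sources used here, so the count of Mrps18b may hold reads of both.

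**Figure D2:**
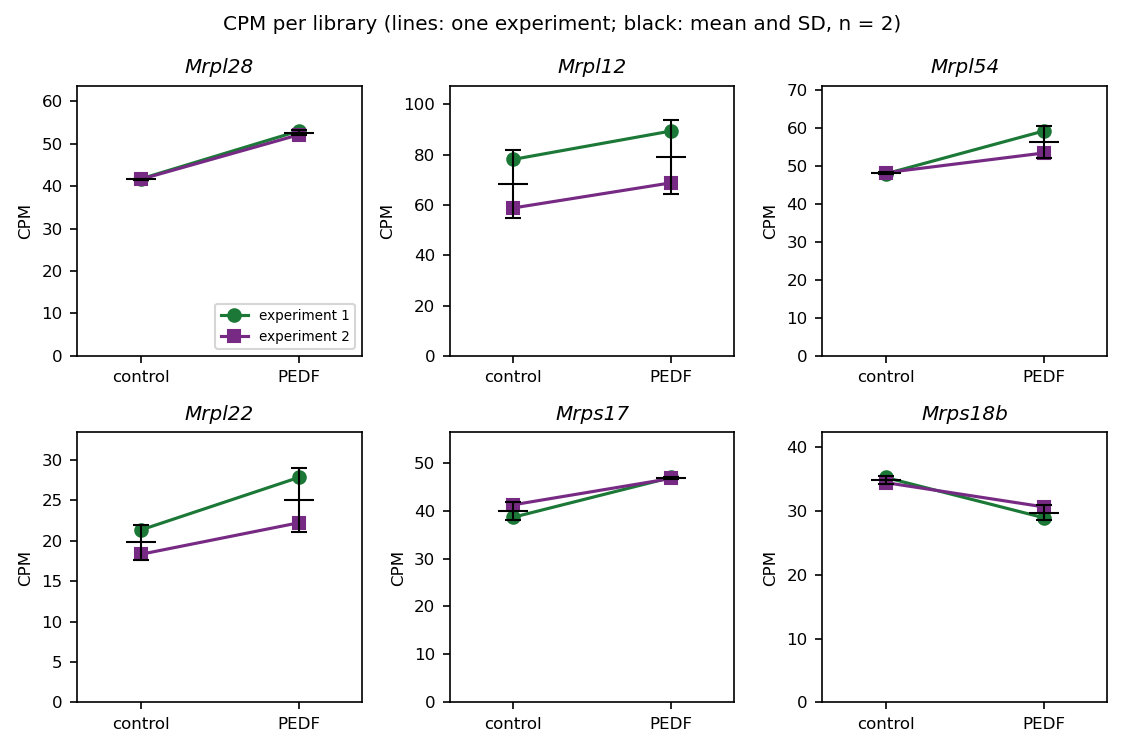
CPM of 6 Mrp genes in the control and PEDF libraries, with 1 line per experiment and the mean and SD of each treatment (n = 2) in black. The PEDF library lies above the control library of the same experiment for Mrpl28, Mrpl12, Mrpl54, Mrpl22 and Mrps17 and below it for Mrps18b, and the treatments of Mrpl12 overlap.

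The separation of the 2 treatments was also counted, without regard to a test. It comes from the same libraries as the fold changes and is not separate evidence of their direction. In 39 of the 77 genes (50.6%) both PEDF libraries were above both control libraries, compared with 18.9% of all genes. In 2 genes, Mrpl38 and Mrps18b, both PEDF libraries were below both control libraries (18.4% of all genes), and in the other 36 the treatments overlapped. Mrpl38, a large-subunit protein named here after its values were seen, had 49.1 and 48.1 CPM in control and 46.8 CPM in each PEDF library, a difference of -0.05 on the log2 scale (standard error 0.08).

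The subunits were then summarised apart. The 50 tested genes of the large subunit, which include Mrps18a and Mrps30 in spite of their symbols, had a median log2 fold change of 0.12, and 42 of them were above 0. The 26 genes of the small subunit had a median of 0.05, and 20 of them were above 0. With the block and the length correction these medians were 0.07 and 0.03, with 39 of 50 and 15 of 26 genes above 0. Without the block, 35 of 50 and 14 of 26 were above the genes of similar length and level, a comparison described below. The 4 Mrp genes called with the block alone were of the large subunit. Of the small one, Mrps17 was called higher and Mrps18b lower with the length correction. Chchd1, a subunit gene of another name described below, also belongs to the small one and was called higher with the block. The difference between the subunits was not tested. Genes with a bacterial counterpart (46 tested) and genes specific to mitochondria (30 tested) had medians of 0.10 and 0.08.

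Mrps36 was set apart from both subunits, since its product is now regarded as a part of the 2-oxoglutarate dehydrogenase complex. It had 19.7 and 16.9 CPM in control and 16.0 and 19.4 CPM in PEDF libraries. Its log2 ratio was -0.29 in experiment 1 and 0.19 in experiment 2, and its log2 fold change was -0.04 (standard error 0.14).

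Other proteins of known position or function had small and varied values without the block. In the stalk, whose base holds Mrpl10 and Mrpl11, the log2 fold changes were 0.02 (standard error 0.09) for Mrpl10 and 0.20 (standard error 0.10) for Mrpl11. Mrpl11 had 30.3 and 29.8 CPM in control and 37.7 and 31.4 CPM in PEDF libraries. Mrpl44, which has a fold like that of ribonuclease III, had 14.8 and 14.4 CPM in control and 18.1 and 17.1 CPM in PEDF libraries, which is 0.27 on the log2 scale (standard error 0.13). Mrpl58, a peptidyl-tRNA hydrolase built into the large subunit, had 29.1 and 24.3 CPM in control and 29.3 and 31.2 CPM in PEDF libraries. Its log2 fold change was 0.18 (standard error 0.11). None of these passed the adjusted p in edgeR with or without the block.

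Close to 0 were Mrpl45 (0.02, standard error 0.09), which lies at the tunnel exit facing the inner membrane, Mrps12 (-0.01, standard error 0.11), a protein of the decoding site, Mrps21 (0.05, standard error 0.09) and Mrps30 (0.06, standard error 0.09). Mrps6 was 0.05 (standard error 0.14) on the same log2 scale, with opposite signs in the experiments, -0.23 in experiment 1 and 0.31 in experiment 2.

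The experiments were then examined singly, each with 1 library per treatment and therefore without a test. In experiment 1 the log2 ratio of PEDF to control CPM had a median of 0.08 over the 77 genes, with 57 above 0 and a range of -0.47 to 0.38. In experiment 2 the median was 0.12, with 62 above 0 and a range of -0.17 to 0.58. The SD of the ratios over genes was 0.17 and 0.14, while the median error from counting alone was 0.09 and 0.08. The ratio was above 0 in both experiments in 47 genes (61.0%), compared with 30.1% of all genes. It was below 0 in both in 5 genes, compared with 28.8% of all genes. These were Mrpl20, Mrpl38, Mrps18b, Mrps26 and Mrps27, and the other 25 genes had mixed signs. For the counts over both experiments, no share was taken among genes of similar length and level.

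The size of the ratio of a single gene did not carry over well from one experiment to the other. Across the 77 genes, Pearson's r between the ratios of the 2 experiments was 0.11, which is given as a description because genes of a library share its depth and composition and are not independent replicates. Mrpl33 and Mrpl32, both with bacterial counterparts in the large subunit, had the most extreme ratios. Mrpl33 had 384 counts in control and 292 in PEDF-treated MEFs of experiment 1 (log2 ratio of CPM -0.47) and 409 and 445 counts in experiment 2 (0.12). Mrpl32 had 23.6 and 23.9 CPM in experiment 1 (0.02) and 17.3 and 25.8 CPM in experiment 2 (0.58). Mrpl34 likewise had ratios of -0.33 and 0.11. For these 3 genes the direction or the size of the difference was therefore set by 1 experiment.

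**Figure D3:**
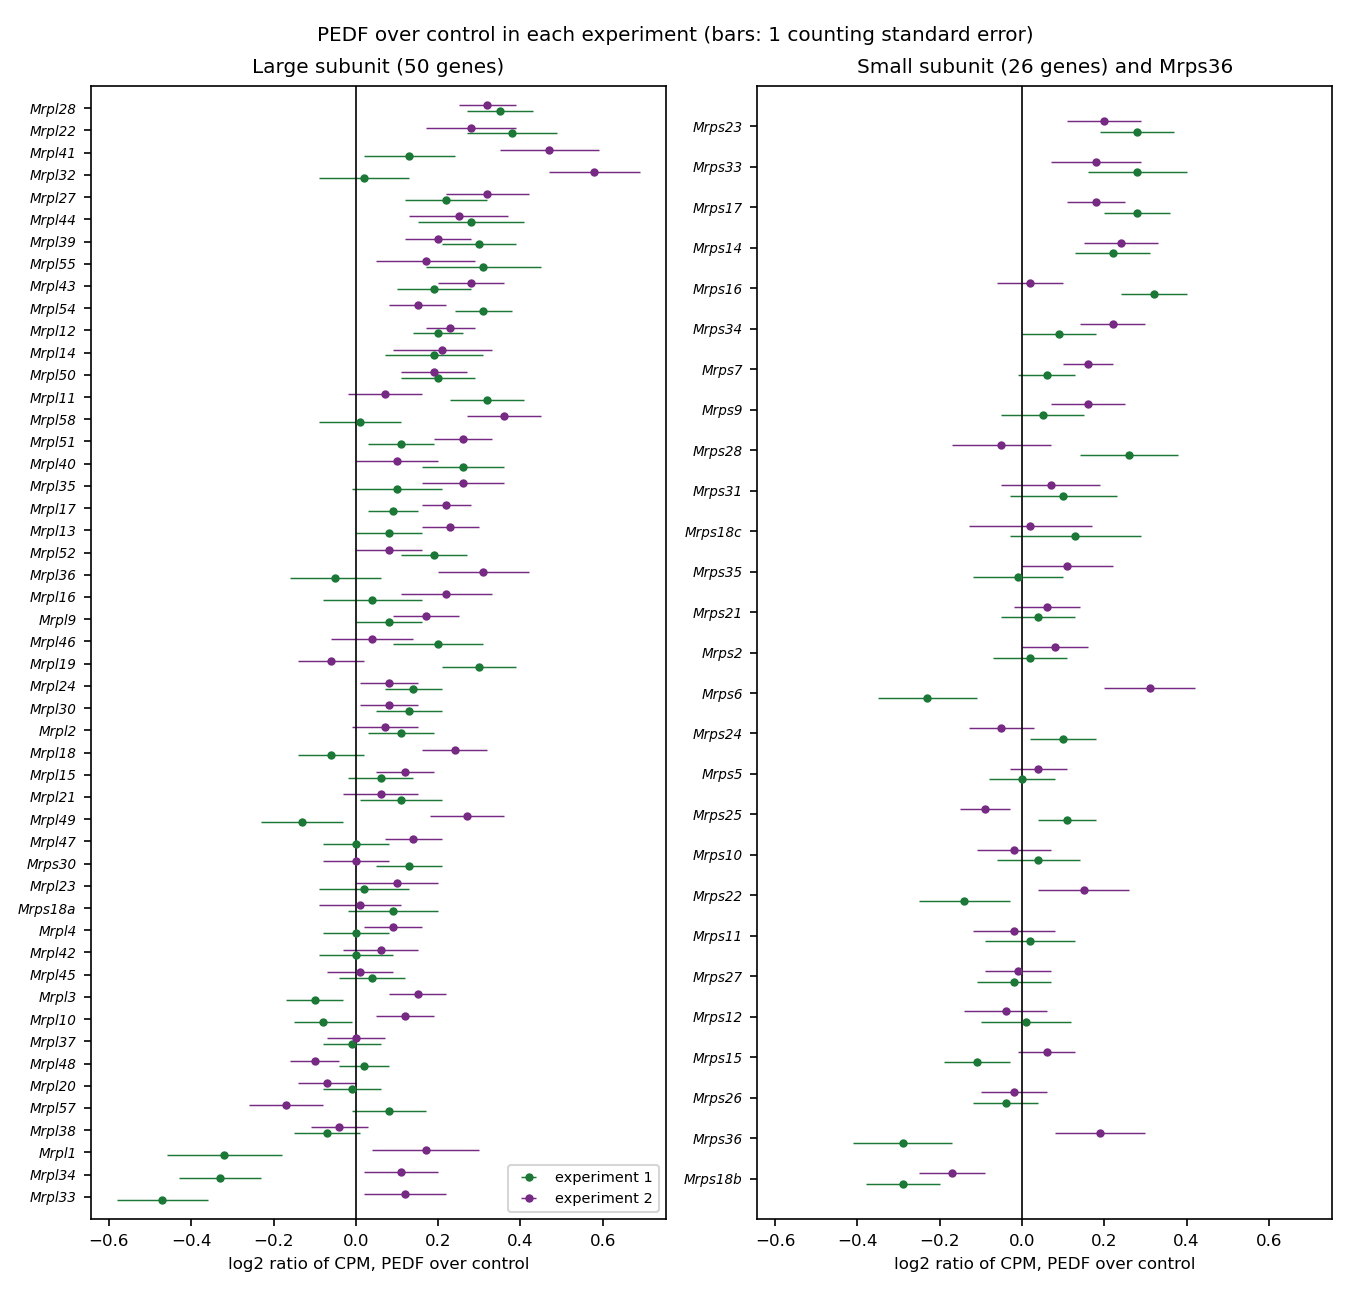
Log2 ratio of PEDF to control CPM for each Mrp gene in experiment 1 (green) and experiment 2 (purple), ordered by the mean of both, with bars of 1 standard error from counting alone. Most points lie to the right of 0 (57 of 77 genes in experiment 1 and 62 of 77 in experiment 2), while the order of single genes differs between the experiments.

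Gene length was examined because fold changes between these libraries followed it. The Mrp genes are short, with a median summed exon length of 2532 bp compared with 4410 bp for all tested protein-coding genes, and their GC content (51.3%) was close to that of the others (51.0%). For each gene, the median log2 fold change of other protein-coding genes of similar length (from 0.8 times its length to the inverse of that) and similar level (within 1 unit of log2 CPM) was subtracted. Such genes numbered 20 to 1435 for each Mrp gene, with a median of 735. Their own medians had a median of 0.06 over the Mrp genes. The difference taken gene by gene (the excess) had a median of 0.05, and 49 of 77 (63.6%) were above the genes like them. In experiments 1 and 2 singly the median excess was 0.04 each, with 49 and 51 of the 77 genes above. When the median length of the annotated coding transcripts was used instead, the excess was again 0.05, with 54 of 77 above. In the block fit corrected for transcript length, the excess over the genes of similar summed exon length was 0.03, with 46 of 77 above.

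The excess differed among lengths. Of the 19 Mrp genes shorter than 1500 bp, 16 (84.2%) were higher with PEDF, compared with 81.7% of 465 other protein-coding genes of that length with a mean log2 CPM above 3, the level used for the other genes in all classes here, and 9 of the 19 were above the genes of similar length and level. Of the 27 genes of 1500 to 3000 bp, 20 (74.1%) were higher, compared with 76.5% of 1861 others, and 15 of the 27 were above. Of the 31 genes of 3000 bp or more, 26 (83.9%) were higher, compared with 42.8% of 7674 others, and 25 of the 31 were above. Both PEDF libraries were above both control libraries in 47.4%, 51.9% and 51.6% of the Mrp genes of these classes, from short to long, and in 40.4%, 34.3% and 16.1% of the others. The difference from other genes was thus largest among the long ones, although this contrast between lengths was not tested. The last class has no upper bound, and its others include genes longer than Mrps35, the longest Mrp gene (8631 bp). Others of 9397 to 12000 bp had a median log2 fold change of -0.07. Against genes of similar length and level, the median excess was -0.00, 0.01 and 0.06 from short to long. The long genes include several whose coding transcripts are much shorter than their summed exons.

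**Figure D4:**
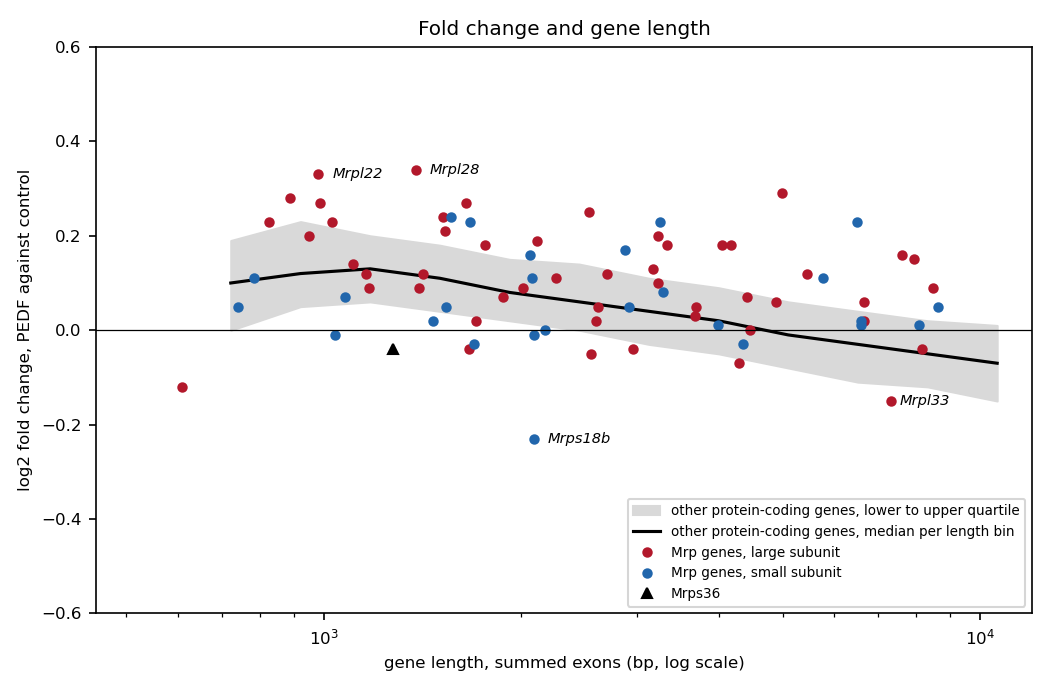
Log2 fold change (PEDF against control, edgeR without the block) of the 77 Mrp genes against summed exon length (log axis), with the large subunit in red, the small subunit in blue and Mrps36 as a triangle. The black line and grey band are the median and quartiles of other protein-coding genes with a log2 CPM above 3 in length bins, whose median falls from 0.13 at 1041 to 1329 bp to -0.07 at 9397 to 12000 bp, and the Mrp genes to the right lie mostly above the band's centre.

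After a trend with length had been removed from each library, still with the block, the median log2 fold change of the Mrp genes was 0.06, and 54 of 77 were above 0. An adjusted p under 0.05 in edgeR was then given to 3 of the 77 genes (3.9%), compared with 2.23% of all genes. These were Mrpl28 (0.26, adjusted p = 0.0262) and Mrps17 (0.26, adjusted p = 0.0414), which rose, and Mrps18b (-0.29, adjusted p = 0.0454), which fell. The calls of Mrpl12, Mrpl54 and Mrpl22 were lost, as given above. Mrps17 (chr5:129715497-129722556, plus strand), a small-subunit protein with a bacterial counterpart, had 38.6 and 41.2 CPM in control and 46.9 and 46.7 CPM in PEDF libraries and an adjusted p of 0.0679 in edgeR with the block alone. Mrpl28 was the 1 gene called in the block fits with no length correction, with it, with length and GC corrected together, and with transcript length in place of exon length.

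The experiments themselves differed in some of these genes. With treatment in the model, 3 of the 77 genes (3.9%) were lower in experiment 2 than in experiment 1 by an adjusted p under 0.05 in edgeR, compared with 2.19% of all genes, and 0 were higher, compared with 2.3% of all genes. At an unadjusted p under 0.05, 11 were lower and 1 was higher in edgeR, compared with 7.28% and 7.53% of all genes, while DESeq2 gave 1 lower and 0 higher and set no adjusted p for any of the 77. The 3 called genes were Mrpl12 (log2 difference -0.39, standard error 0.06, adjusted p = 8.18e-08), Mrpl20 (-0.23, standard error 0.07, adjusted p = 0.0343) and Mrpl41 (-0.35, standard error 0.11, adjusted p = 0.0451). After the length correction in edgeR, Mrpl12 was still called (-0.34, adjusted p = 9.62e-06), and the calls of Mrpl20 (-0.18, adjusted p = 0.193) and Mrpl41 (-0.28, adjusted p = 0.194) were lost. With no treatment term in edgeR all 3 calls were lost (adjusted p of 0.252 or more), and with no filter on low counts that of Mrpl41 was (adjusted p = 0.0571). Mrpl20 is among the proteins with a bacterial counterpart and Mrpl41 is specific to mitochondria. Mrpl20 had 54.1 and 53.9 CPM in experiment 1 and 47.0 and 44.8 CPM in experiment 2 (control, then PEDF), so its levels separated by experiment and not by treatment. Mrpl41 had 308 and 354 counts in experiment 1 and 258 and 356 counts in the more deeply sequenced experiment 2. The median over the 77 genes was -0.06, 59 were lower in experiment 2, and the genes of similar length and level had a median of -0.05, which leaves -0.01. For Mrpl12 the difference between experiments (-0.39) was larger than that between treatments (0.21).

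Subunits of the same ribosome that carry other names were compared as well. Of 5 such genes, 0 were called by edgeR without the block. There 2 had an unadjusted p under 0.05, both higher, compared with 3.22% of all genes. With the block 1 was called, also higher, compared with 1.67% of all genes. Chchd1, a small-subunit protein specific to mitochondria, had 34.4 and 26.5 CPM in control and 39.8 and 36.6 CPM in PEDF libraries. It rose with PEDF with the block in edgeR (log2 fold change 0.34, standard error 0.09, adjusted p = 0.00526), and after the length correction its log2 fold change was 0.26 (adjusted p = 0.0842). With the block in DESeq2 its unadjusted p was 0.0431, and it was not called when p was adjusted over all genes. Without the block in edgeR, its value was 0.53 (adjusted p = 0.00534) when the control library of experiment 1 was left out and 0.15 (adjusted p = 0.999) when that of experiment 2 was. For Aurkaip1, also of the small subunit, the log2 fold change was 0.21 (standard error 0.09) without the block. Those of the large-subunit protein Gadd45gip1 (0.08, standard error 0.09), of the GTP-binding protein Dap3 (0.02, standard error 0.08) and of the pentatricopeptide protein Ptcd3 (-0.06, standard error 0.09) were within their errors of 0.

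The genes that build and serve the ribosome were described in the same way. None of 23 assembly factors, 15 translation factors or 20 mitochondrial aminoacyl-tRNA synthetases was called in edgeR without or with the block. Of all genes, 0.00516% and 3.75% were. The median log2 fold changes of these lists were -0.00, 0.04 and -0.03. Against genes of similar length and level these medians were -0.05, 0.03 and -0.05, beside 0.05 for the Mrp genes, and the contrast was not tested. Those with the smallest p with the block, given by their log2 fold change in that fit, were the helicase Dhx30 (-0.14, standard error 0.06) and Mterf4 (0.16, standard error 0.09) for assembly, the elongation factor Tsfm (0.22, standard error 0.10) and the mRNA-stabilizing protein Lrpprc (-0.12, standard error 0.06) for translation, and Iars2 (-0.14, standard error 0.06) and Lars2 (-0.14, standard error 0.05) for the charging of tRNA. Lars2 moved in opposite ways in the experiments, from 362 to 386 CPM with PEDF in experiment 1 and from 348 to 269 CPM in experiment 2, and its standard error was 0.18 without the block. With the length correction added to the block, the 4 lower values shrank to -0.07 for Dhx30, -0.07 for Lrpprc, -0.08 for Iars2 and -0.06 for Lars2. The higher values were then 0.17 for Mterf4 and 0.17 for Tsfm. Over the 58 genes of these 3 lists, 0 had an unadjusted p under 0.05 without the block in edgeR or DESeq2, and with it edgeR gave 1 higher and 3 lower and DESeq2 none. Among all genes in edgeR, 3.22% were higher and 3.66% lower by that rule without the block, and 7.18% and 7.38% with it.

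Of 8 genes of mitochondrial transcription and DNA maintenance, 1 was called with the block, and it was lower, compared with 2.07% of all genes. This was Polg, which encodes the polymerase that copies mitochondrial DNA rather than a factor of transcription (log2 fold change -0.20, standard error 0.06, adjusted p = 0.0423 in edgeR). Its call was lost after the length correction (-0.13, adjusted p = 0.386). The termination factor gene Mterf1b was at 0.448 to 1.63 CPM, where a log2 fold change of 0.57 had a standard error of 0.54. Of 10 regulators, 1 was called and lower with the block, beside the same share of all genes. Myc, a transcription factor that raises ribosome production, had 53.1 and 64.4 CPM in control and 45.8 and 52.2 CPM in PEDF libraries, which edgeR gave as -0.26 on the log2 scale (standard error 0.07, adjusted p = 0.0107) and as -0.31 (adjusted p = 0.00111) after the length correction. Myc was not called in edgeR without the block (adjusted p = 0.696), where its value was -0.39 when the control library of experiment 1 was left out and -0.11 when that of experiment 2 was. In DESeq2 with the block its unadjusted p was 0.0519, and neither it nor Polg was called when p was adjusted over all genes. For Pprc1, a coactivator of NRF1, it was -0.15 (standard error 0.05, adjusted p = 0.0904 in edgeR) with the block. The 2 ribosomal RNAs of the organelle, mt-Rnr1 and mt-Rnr2, were at 0.12 each on the log2 scale without the block (standard errors 0.09 and 0.08) and at 0.04 each with the block and the length correction. Ribosomal RNA is sampled only in part by a library of polyadenylated RNA.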

How the data were processed

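RNA of 2 control and 2 PEDF-treated MEF libraries was sequenced from both ends. Per the submitters' processing notes and the paper's methods, reads were processed with FastQC 0.11.7, Trimmomatic 0.38, HISAT2 2.1.0, SAMtools 1.9 and featureCounts 1.6.3 on build mm10. The libraries were made with a directional kit, per the paper, but the annotation release and the strand setting of the counting are not given in the sources used here. The authors deposited raw counts of uniquely mapped reads per gene and, separately, TPM values, which correct for gene length. Gene lengths were recovered from the ratio of the deposited counts to TPM, scaled to the summed exon lengths in GENCODE M21, because the files hold no length. They came within 0.5% of those exon lengths for 98.5% of 26133 genes, among them all 77 tested Mrp genes. Coordinates were identical to that annotation for 54784 of 55487 genes. Of the Mrp genes, 8 share exon bases with another gene on the same strand and 28 with one on the opposite strand, and 6 processed pseudogenes of similar symbols held 0 to 18 counts per library.

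Tests were run with edgeR 4.0.16 in R 4.3.3 (TMM factors, robust quasi-likelihood), and p-values of the 19384 genes that reached 10 counts were adjusted together by the Benjamini-Hochberg method. The labels give each library an experiment number, and the design text of the series states that the experiments used MEFs from different embryos. The shift from experiment 1 to 2 in control libraries correlated with that in PEDF libraries (r = 0.425 across 10691 genes whose mean log2 CPM exceeded 3). A second fit therefore took the experiment as a block. Length trends were removed with splines of 5 degrees of freedom used as offsets. Log2 ratios within an experiment used a prior count of 0.5. The other alternatives were DESeq2 1.42.0, RLE factors, no filter (at least 1 count) and each library left out in turn. Methods were also run on simulated data, with larger changes than those of the Mrp genes and no difference between experiments. That run does not test the block fit for differences as small as those of the Mrp genes. Intervals and errors from counting cover counting error only.

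The gene list, the related lists and the tests were chosen with earlier results of these data known. Genes named were those called with or without the block, the 3 largest changes each way, the 4 highest and 3 lowest by TPM, the longest and shortest, subunits of set roles and at most 2 genes of each related list. Mrpl1, Mrps17, Mrpl20, Mrpl41, Mrpl38, Mrps26, Mrps27 and Mrpl17 were named after their values were seen. The protein and animal measurements of the study were not analysed here.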

Additional observations from a re-analysis of the deposited data

How the results depend on the processing

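A gene held 160 to 1390 counts per library, so that counting alone gave the log2 ratio of a single gene a median error of 0.09 in experiment 1 and 0.08 in experiment 2. Opposite-strand and same-strand overlaps could not be separated, and a trend with length between libraries cannot be told apart from a difference that comes with the treatment.

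The number of Mrp genes with an adjusted p under 0.05 between treatments was 0 in edgeR, also with RLE factors and in DESeq2 without the block. DESeq2 with the block set no adjusted p for any of the 77 genes and for 81 of the 83 related genes, because its filter on the mean count left them out, and so gives no count. With p adjusted over all genes, chosen after seeing the data, DESeq2 called 0 Mrp genes and 0 related genes with or without the block. It was 1 with no filter on low counts (1.3%, compared with 0.405% of all genes). With the replicate block, that is with libraries paired by experiment, it was 4, and with the block and the length correction it was 3. Alternatives chosen after seeing the data gave 4 (block with length and GC correction, Mrpl17 being the additional gene, 5.19% compared with 2.16% of all genes) and 1 (block with transcript length, 1.3% compared with 2.57%). With each library left out in turn it was 0 to 3, and the 3 genes, Mrpl12, Mrpl32 and Mrpl41, appeared without control replicate 1 (3.9%, compared with 1.71% of all genes). That fit has 1 control library, from experiment 2, which is assumed to vary like the PEDF libraries, so its treatment difference also holds part of the difference between experiments. Of the 83 related genes, 0 were called in edgeR without the block and 3 with it, compared with 3.75% of all genes with it. The number was 1 with the length correction added (2.23% of all genes), 1 with length and GC (2.16%) and 5 with transcript length (2.57%). The 3 genes that differed between experiments became 0 without a treatment term and 1 with a length correction. DESeq2 set no adjusted p for them, and with p adjusted over all genes it called 0.

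The median log2 fold change of the Mrp genes was 0.06 with the replicate block and the length correction, with or without GC, and 0.05 to 0.12 with a library left out. The lowest value came without control replicate 2. The median above genes of similar length was 0.05, 0.04 and 0.03 in the block fits corrected for length, for length and GC and for transcript length, and 0.03 to 0.06 with a library left out. It was 0.04 and 0.05 with a window of 1.1 and 1.5 times the length, and 0.05 with the window on transcript length or without overlapping genes. The medians within experiments and the summed level moved by less than the spread between replicates under every alternative run for them (0.019 percentage points for the sum without overlapping genes).

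Of 42 named genes, 18 changed sign in at least 1 setting. With the replicate block and length correction these were Mrpl10 (-0.05), Mrpl45 (-0.03), Mrps18c (-0.00), Mrps21 (-0.02) and Mrps6 (-0.02). With GC added they were Mrpl10 (-0.04), Mrpl45 (-0.05), Mrps18c (-0.03), Mrps21 (-0.02) and Mrps6 (-0.02), and with transcript length Dap3 (-0.03), Mrpl10 (-0.03), Mrpl45 (-0.02), Mrps18a (-0.00) and Mrps6 (-0.00). With each library left out, the log2 fold change lay between -0.01 and 0.17 for Gadd45gip1, -0.40 and 0.12 for Lars2, -0.08 and 0.12 for Mrpl10, -0.17 and 0.09 for Mrpl20, -0.38 and 0.03 for Mrpl33, -0.29 and 0.07 for Mrpl34, -0.04 and 0.01 for Mrps12, -0.03 and 0.15 for Mrps30, -0.08 and 0.18 for Mrps35, -0.19 and 0.09 for Mrps36, -0.11 and 0.21 for Mrps6, -0.05 and 1.53 for Mterf1b, and -0.02 and 0.25 for mt-Rnr2. The cause of these changes was not tested.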
